A study of Rattus norvegicus with 8 samples.

Results

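The genes described are the heat shock proteins, the J proteins and the cytosolic chaperonin CCT, the main families of molecular chaperones. Symbols beginning with Hspa, Hspb, Hspd, Hspe, Hsph or Hsp90, with Dnaja, Dnajb or Dnajc and a number, or with Cct2 to Cct8, and Tcp1, were taken where they had a protein-coding biotype. Of 83 matching symbols, 68 were members, out of 14309 genes tested and 28909 symbols counted. The pattern also took in Hspbp1, Hspbap1 and Hspb11, 3 members grouped as other HSP-named genes and in none of these families. They are included in all counts of members. Dnajc6 (1 symbol) was excluded by name, 13 symbols had too few reads to be tested, of which Dnajb8 and Dnajc5g (2 symbols) had no read in any library, and Hspa1a had enough reads but no biotype. A gene was tested where more than 20 reads fell on it in at least 2 libraries. That count was passed in all 8 libraries by 63 members, and the other 5 were Dnajc17, Hspa1l, Hspb1, Dnajc12 and Hspb6.

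The libraries were made from ribosome-depleted total RNA of primary hippocampal neurons of embryonic Sprague-Dawley rats, with no genetic change. Neurons grew on top of porous inserts whose pores pass axons and dendrites but not cell bodies. Processes were collected from the lower side and somata from the upper side, which the pores do not keep free of processes. Cultures received picrotoxin (PTX), a blocker of GABA-A receptors that raises network activity, for 48 h from day 18 to day 20 in vitro, or vehicle (control). There were 2 libraries for each of the 4 conditions, and no label says that they came from separate cultures, so that p-values measure the spread between these libraries, which may be technical. The comparisons asked which chaperone mRNAs were relatively more abundant in processes or in somata, and which changed during the chronic activity increase that leads to synaptic downscaling.

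Chaperones bind unfolded stretches of protein. HSP70 proteins hold them in a cycle driven by ATP, J proteins (DnaJ or HSP40 proteins) deliver the substrate and start ATP hydrolysis, and HSP110 proteins and other exchange factors release the nucleotide. HSP90 completes the folding of kinases and receptors, HSP60 with HSP10 folds proteins inside mitochondria, CCT folds tubulin and actin, and small heat shock proteins hold unfolded proteins in a soluble state. The cytosolic genes are classically switched on by heat shock factor 1 at the heat shock element, and those of the endoplasmic reticulum (ER) by the unfolded protein response at the ER stress element.

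To show these elements, the reference promoters from RefSeq (assembly GRCr8, 250 bases before to 50 after each start) were searched on both strands, and 57 of the 68 members had an entry. The ER stress element, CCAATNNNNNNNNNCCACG, was found in 3 of these 57 (5.26%), Hspa5, Hsp90b1 and Dnajc3, and in 22 of 33469 promoters in all (0.0657%). The heat shock element, GAANNTTCNNGAA, was found in 6 of 57 (10.5%), Hspa8, Hsph1, Hspd1, Hspe1, Dnaja1 and Cct4, and in 267 of all promoters (0.798%). The windows below are written along the gene's strand, with the match in capitals, for the members on which the results turn. The matches describe the letters of these windows and are not measured binding sites.
Hspa5 (ER stress element, chr3:38452968-38452997, plus strand): gttcaCCAATCGGAGGCCTCCACGacgggg
Hsp90b1 (ER stress element, 1 of 2, chr7:23012445-23012474, minus strand): caaacCCAATCGAAAGGAGCCACGcttcgg
Dnajc3 (ER stress element, chr15:102432529-102432558, plus strand): caaagCCAATCAGCGCCAACCACGacccag
Hsph1 (heat shock element, reverse strand match, chr12:10427324-10427353, plus strand): gccgcagaTTCTGGAAAGTTCtcctcagta
Hspa8 (heat shock element, reverse strand match, 1 of 2, chr8:50080451-50080480, plus strand): cggaacccTTCTGGAAGGTTCtaagacagg
Hspd1 (heat shock element, 1 of 2 overlapping matches, chr9:64084253-64084282, minus strand): gccttccgGAAGGTTCTAGAAccgagcgcg
Hspe1 (heat shock element, 1 of 2 overlapping matches, chr9:64084259-64084288, plus strand): cggttctaGAACCTTCCGGAAggccccgcg
The match of Hspa5 began 43 bases before the start, and that of Hsph1 36 bases before it. Hspd1 and Hspe1 lie head to head, and the matches printed for them overlap on opposite strands of chromosome 9, starting 237 bases before Hspd1 and 60 bases before Hspe1. The cAMP response element, TGACGTCA, was found in 4 of 57 members (7.02%), Cct4, Dnajc27, Dnajc30 and Hsp90ab1, and in 1.83% of all promoters.

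Libraries held 12290890 to 18455662 counts, but mitochondrial rRNA took 64.89 to 68.31% of them in processes and 21.09 to 24.76% in somata. A median member had 608 to 815.5 reads per soma library and 237 to 294.5 per process library. Levels are therefore given as CPM, read counts scaled to a common total after TMM scaling, which sets the typical gene equal between libraries, and a compartment difference is relative to that typical gene. All 8 neuron markers were tested, and their summed level was 1162 to 1425 CPM in somata and 1023 to 1594 CPM in processes. Of them 6 were lower in control processes and 2 were higher (median -0.65), with Camk2a highest at 2.55 on the log2 scale. Astrocyte markers summed to 3166 to 4476 CPM in somata and to 11401 to 14917 CPM in processes, with 4 of 8 higher there (Gfap by 2.60 on the log2 scale) and 2 lower. Microglial markers were near 0, with at most 27 reads of any gene in any library. Oligodendrocyte markers summed to 271 to 454 CPM in somata and 470 to 647 CPM in processes, and vascular and fibroblast markers to 42.7 to 112 CPM and 30.8 to 82.3 CPM, with Cldn5 at 0 throughout. The part of astrocyte and neuron marker differences in the chaperone values was not tested, and fewer cells of a type and less RNA per cell cannot be told apart in bulk libraries.

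In control cultures the chaperone mRNAs were split between the compartments. With edgeR's quasi-likelihood test, 14 of 68 members were higher in processes than in somata and 15 were lower, while 39 did not pass. These shares of 20.6% and 22.1% compare with 25.8% and 21.9% of all genes tested, and the median log2 fold change was 0.02 for the members and -0.05 for all genes. An absolute log2 fold change above 1 was reached by 3 members higher in processes (4.41%, against 11.6% of all genes), Dnajc1, Dnajc5 and Dnajc27, and by 1 lower (1.47%, against 7.58%), Dnajc16. With upper quartile scaling, which lowered the all-gene median to -0.25, the split was 10 higher and 24 lower. With library size alone, which lowered that median to -1.86, no member was higher in processes and 66 were lower, so that every direction in the following holds relative to the typical gene.

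**Figure D1:**
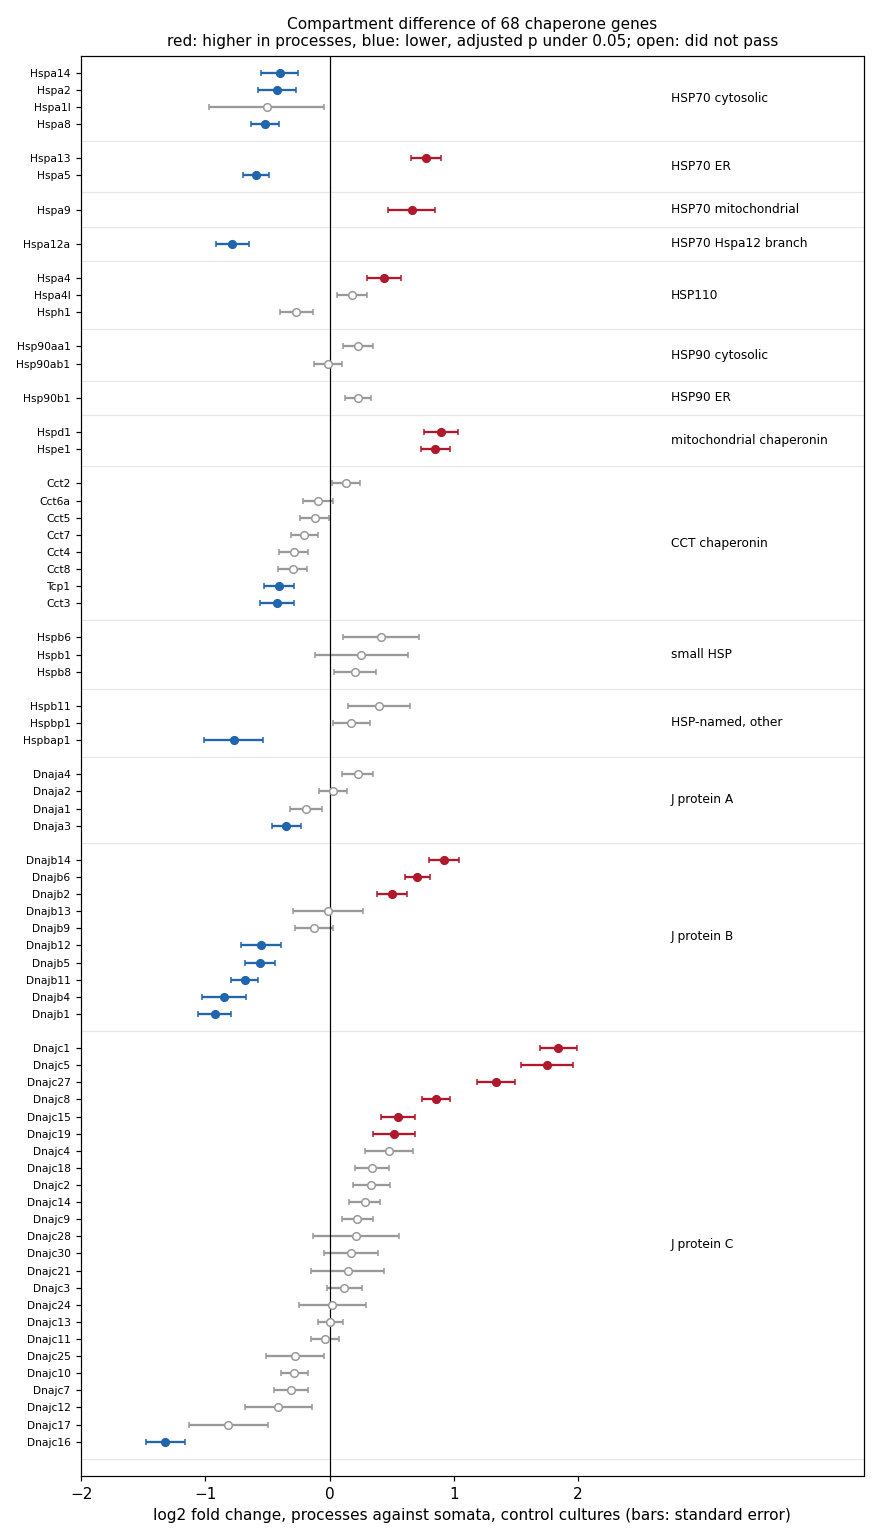
Log2 fold change of processes against somata in control cultures for the 68 genes, grouped by family, with standard errors as bars. Filled red points are the 14 genes higher in processes relative to the typical gene, filled blue points the 15 lower ones, and open points did not pass the test. Hspd1 and Hspe1 lie together on the right, and Hspa8, Hspa2 and Hspa14 of the cytosolic HSP70 group lie on the left. With library size scaling alone no gene was higher in processes.

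The mitochondrial chaperonin stood on the process side. Hspd1 (HSP60) measured 60.1 and 64.9 CPM in control somata, 56.6 and 64.4 CPM in PTX somata, 103 and 130.3 CPM in control processes and 115 and 127 CPM in PTX processes. Its cofactor Hspe1 (HSP10) measured 18.6 and 20.8 CPM, then 19.4 and 20.3 CPM in somata, and 34.1 and 37.2 CPM, then 36.6 and 35.0 CPM in processes. For both genes every process library lay above every soma library. The log2 fold change in control cultures was 0.90 for Hspd1 (SE 0.134, quasi-likelihood adjusted p = 0.000321) and 0.85 for Hspe1 (SE 0.116, adjusted p = 0.000171), against 0.85 to 1.01 in PTX cultures.

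The mitochondrial HSP70 (Hspa9, mortalin, the motor of protein import) was also higher in control processes, with 182 and 255 CPM against 124 and 152 CPM in somata (log2 fold change 0.66, SE 0.188, quasi-likelihood adjusted p = 0.0142). The libraries of replicate 2 were the higher ones in all 4 conditions, and the call was lost without control somata replicate 1 (0.53, adjusted p = 0.104) or control processes replicate 2 (0.40, adjusted p = 0.140), and with upper quartile scaling (0.46, adjusted p = 0.061). The J proteins of the import motor, Dnajc15 (0.55, SE 0.136, adjusted p = 0.00682) and Dnajc19 (0.52, SE 0.17, adjusted p = 0.0277), were higher in processes too, whereas Dnaja3, the J protein of the mitochondrial matrix, was lower (-0.35, SE 0.116, adjusted p = 0.0288). The calls of Dnajc19 and Dnaja3 were lost with DESeq2 (adjusted p = 0.0703 and 0.111), for Dnajc19 also with upper quartile scaling (0.32, adjusted p = 0.136) and without either control processes library or control somata replicate 1 (0.42 to 0.59, adjusted p = 0.0547 to 0.152), and for Dnaja3 without any of the 4 control libraries (-0.41 to -0.29, adjusted p = 0.0562 to 0.156). Of 10 genes of mitochondrial folding and import, Hspa9 included, 3 were higher and 1 was lower, against 25.8% and 21.9% of all genes. The protease Lonp1 (0.62) and the iron-sulfur cochaperone Hscb (0.59) were higher in processes, and the mitochondrial HSP90 Trap1 (-0.31) lay on the soma side.

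Hspa8, Hspa2 and Hspa14, 3 of the 4 cytosolic HSP70 members, were called lower in processes in both control and PTX cultures. Of all genes, 21.9% were called lower in control and 24% in PTX cultures. The remaining cytosolic HSP70 member, Hspa1l, exceeded the count minimum in the 4 soma libraries alone (22 to 37 reads, against 2 to 7 in processes). It was thus tested only through the group where it is high. Its value is not read as a result, though the counts over all 68 members include it. The constitutive Hspa8 (HSC70, which also strips clathrin from vesicles) measured 152 and 162 CPM in control somata, 186 and 185 CPM in PTX somata, 105 and 114 CPM in control processes and 104 and 117 CPM in PTX processes. No process library reached a soma library, and the log2 fold change was -0.52 in control cultures (SE 0.11, quasi-likelihood adjusted p = 0.00294) and -0.74 in PTX cultures (SE 0.11, adjusted p = 0.000285). Hspa2 (-0.42, adjusted p = 0.0408) and the ribosome-associated Hspa14 (-0.40, adjusted p = 0.0493) passed narrowly in control cultures. Neither passed with DESeq2 (adjusted p = 0.142 and 0.164). Hspa2 was lost without control somata replicate 2, either control processes library or either PTX somata library (-0.44 to -0.30, adjusted p = 0.0527 to 0.233), and Hspa14 without any library except control processes replicate 2 (-0.47 to -0.27, adjusted p = 0.0536 to 0.252). The heat-inducible Hspa1a, which is no member for want of a biotype, had 52 and 40 reads in control somata, 97 and 78 in PTX somata, 7 and 6 in control processes and 5 and 8 in PTX processes. It too passed the count minimum through the soma libraries alone, and its compartment difference was not read as a test.

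The HSP70 genes of the ER split. Hspa5 (BiP, the main HSP70 of the ER lumen and sensor partner of the unfolded protein response) was lower in control processes, with 99.2 and 110.2 CPM against 158 and 157 CPM in somata (log2 fold change -0.59, SE 0.105, quasi-likelihood adjusted p = 0.00101). Hspa13, a microsomal HSP70 lacking the substrate-binding domain, was higher, with 62.4 and 77.6 CPM against 41.0 and 40.7 CPM (0.78, SE 0.123, adjusted p = 0.000474). Both directions were also called in PTX cultures (-0.86 and 0.82). Hspa12a, a distant HSP70 relative abundant in brain, was lower in processes (-0.78, SE 0.133, adjusted p = 0.000728). Of 22 further genes of ER folding and the unfolded protein response, 9 were lower in control processes and 1 was higher, with a median of -0.40, where 21.9% and 25.8% of all genes were called. The degradation genes Herpud1 (-1.27) and Sel1l (-1.03) and the transcription factor Xbp1 (-0.97) were among the lower ones, with the lectin chaperone Canx (0.39) as the higher one.

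Of the HSP110 exchange factors, Hspa4 was higher in control processes (170.0 and 197 CPM against 139 and 132 CPM, log2 fold change 0.44, SE 0.137, quasi-likelihood adjusted p = 0.0221). Its call was lost without either control somata library (0.48 and 0.40, adjusted p = 0.0666 and 0.112), without control processes replicate 2 (0.33, adjusted p = 0.133), and with upper quartile scaling (0.24, adjusted p = 0.171). Hspa4l (0.18, adjusted p = 0.23) and Hsph1 (-0.27, adjusted p = 0.117) did not pass in control cultures, but Hsph1 passed with the replicate number as a block (adjusted p = 0.0386) and was lower in PTX processes (-0.71, SE 0.131, adjusted p = 0.00119). Cytosolic HSP90 was close to even. Hsp90ab1, the constitutive isoform, measured 578 to 642 CPM in somata and 601 to 631 CPM in processes (log2 fold change -0.01, SE 0.111, adjusted p = 0.947). The inducible isoform Hsp90aa1 (0.23, SE 0.117, adjusted p = 0.132) and the ER isoform Hsp90b1 (0.23, SE 0.104, adjusted p = 0.0895) did not pass, though both did with the block (adjusted p = 0.0427 and 0.0331).

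The 8 CCT subunits, which belong to the same complex, stayed within a narrow range of -0.42 to 0.13 in control cultures, with a median of -0.25. With the block 4 of 8 subunits were lower in processes, but it called 8272 of all 14309 genes in either direction (6823 without it). Lower without the block were Cct3 (-0.42, SE 0.14, quasi-likelihood adjusted p = 0.0291) and Tcp1, the alpha subunit (-0.41, SE 0.121, adjusted p = 0.0169), where 21.9% of all genes were lower. Neither passed without control somata replicate 2 (-0.32 and -0.31, adjusted p = 0.163 and 0.125) or control processes replicate 1 (-0.28 and -0.33, adjusted p = 0.189 and 0.0979). Cct2 was the subunit above 0, with 61.5 and 65.5 CPM in control somata and 64.8 and 74.6 CPM in control processes (0.13, SE 0.113, adjusted p = 0.352). Prefoldin, the hexamer that hands actin and tubulin to CCT, and the other CCT cofactors lay on the other side, with 6 of 11 genes higher in control processes and 0 lower (median 0.55, and 25.8% and 21.9% for all genes). The prefoldin subunits Vbp1 (1.35), Pfdn1 (1.28) and Pfdn2 (1.24) had the largest differences of that list. Summed over the genes, CCT measured 546 to 617 CPM in somata and 476 to 534 CPM in processes, and the prefoldin list 160.0 to 184 CPM and 273 to 306 CPM.

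J proteins made up 38 of the members, with log2 fold changes of -1.32 to 1.84 in control cultures. In the C class, 6 of 24 were higher in control processes and 1 was lower, with a median of 0.19 (10 and 4 with the replicate block). In the B class, 3 of 10 were higher and 5 were lower, with a median of -0.34. In the A class 1 of 4, the mitochondrial Dnaja3, was lower. Without the block 25.8% of all genes were higher and 21.9% lower, so the share of the C class called higher was close to the background. The block called 8272 of all 14309 genes in either direction, against 6823 without it, so its counts have a larger background.

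Dnajc5, the cysteine string protein of synaptic vesicles, measured 140.1 and 167 CPM in control somata and 173 and 149 CPM in PTX somata. In processes it measured 478 and 556 CPM in control and 733 and 454 CPM in PTX cultures. Every process library was well above the soma libraries, and the log2 fold change was 1.75 in control (SE 0.207, quasi-likelihood adjusted p = 6.2e-05) and 1.89 in PTX cultures (SE 0.208, adjusted p = 3.52e-05). Dnajc1, a J protein of the ER membrane, went from 8.36 and 8.45 CPM to 27.2 and 33.2 CPM in control cultures (1.84, SE 0.149, adjusted p = 4.31e-06). Dnajc27, which joins a Rab-like GTPase to a J domain, went from 67.7 and 53.5 CPM to 173 and 133 CPM (1.34, SE 0.154, adjusted p = 4.94e-05). Dnajb14 of the ER membrane (0.92), Dnajc8 (0.86), the aggregation suppressor Dnajb6 (0.71) and the ubiquitin-binding Dnajb2 (0.51) were higher in control processes, besides the mitochondrial Dnajc15 and Dnajc19. Dnajb2 was not called with upper quartile scaling (0.30, adjusted p = 0.0544) or in PTX cultures (0.15, adjusted p = 0.317).

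On the soma side, Dnajc16 fell from 14.3 and 12.7 CPM in control somata to 5.12 and 5.63 CPM in control processes (log2 fold change -1.32, SE 0.158, quasi-likelihood adjusted p = 6.48e-05). Dnajb1, the classical HSP40 partner of HSP70, fell from 20.0 and 19.2 CPM to 9.91 and 10.8 CPM (-0.92, SE 0.133, adjusted p = 0.000245), and its close relatives Dnajb4 (-0.85, adjusted p = 0.00264) and Dnajb5 (-0.56, adjusted p = 0.00358) were lower as well. Dnajb11, the J protein that serves BiP, was lower (-0.68, SE 0.108, adjusted p = 0.00046), as was Dnajb12 of the ER membrane (-0.55, adjusted p = 0.0147). Dnajb12 did not pass without control somata replicate 2 (adjusted p = 0.0877) or control processes replicate 1 (adjusted p = 0.101). The general HSP70 partners Dnaja1 (-0.19, adjusted p = 0.234) and Dnaja2 (0.03, adjusted p = 0.859), and the BiP partners Dnajb9 (-0.13, adjusted p = 0.516) and Dnajc3 (0.12, adjusted p = 0.52), did not pass.

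**Figure D2:**
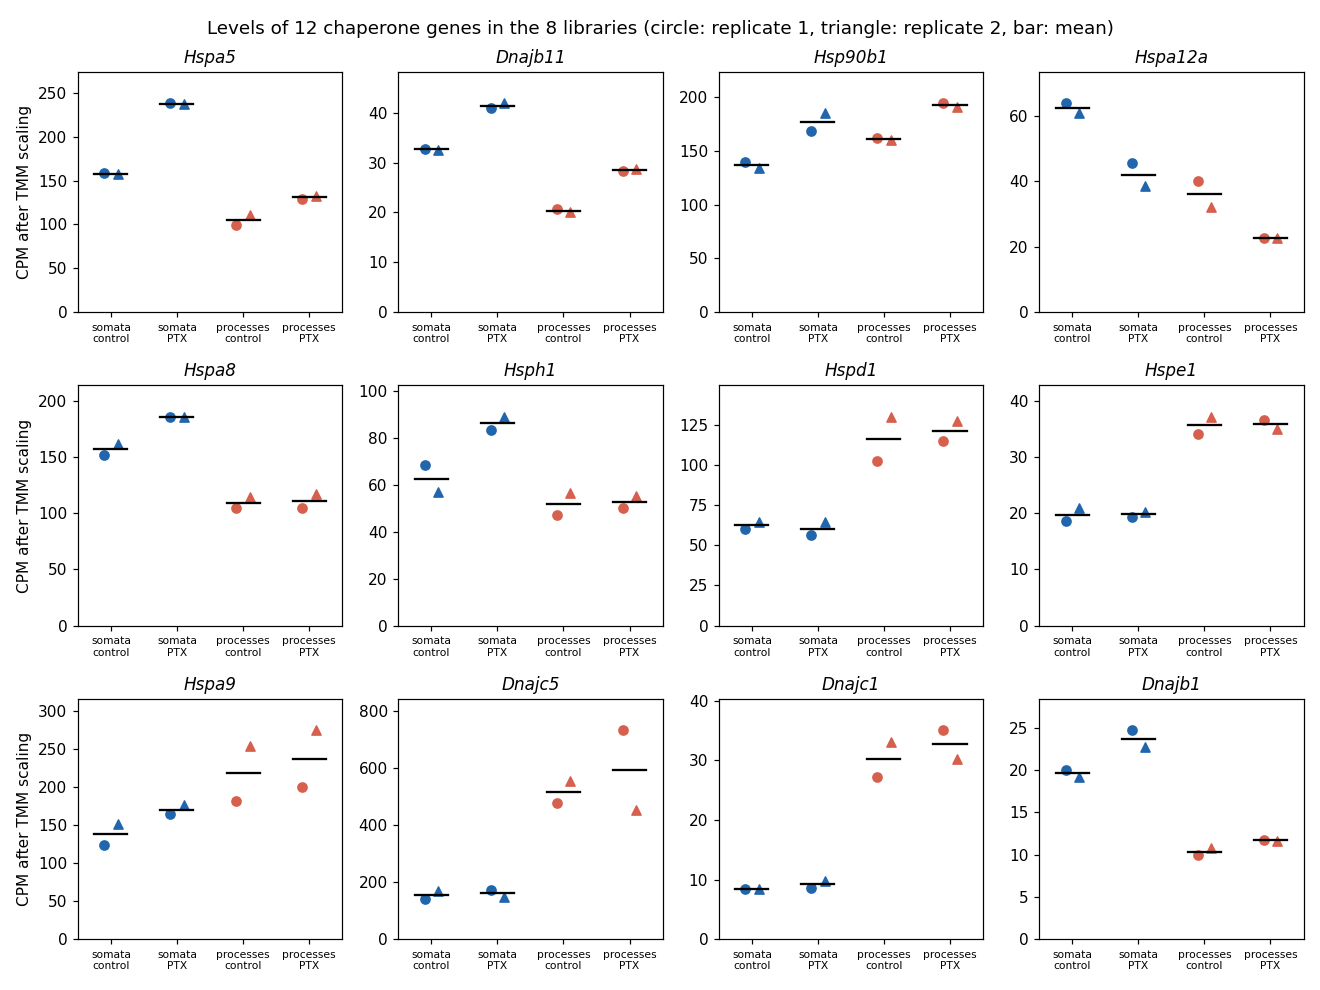
CPM after TMM scaling of 12 chaperone genes in the 8 libraries, with circles for replicate 1, triangles for replicate 2 and bars for the mean of each condition. Each vertical axis starts at 0 and differs between genes. Hspd1, Hspe1 and Dnajc5 are higher in all process libraries, Hspa8 is lower there, and Hspa5 rises in PTX somata (238 and 237 CPM against 158 and 157 CPM).

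The small heat shock proteins were scarce. Hspb1 (HSP27) measured 1.45 to 2.67 CPM in somata and 1.88 to 3.01 CPM in processes, Hspb8 measured 11.1 and 14.2 CPM in control processes (log2 fold change against somata 0.20, SE 0.171), and Hspb6 passed the count minimum in 7 libraries. None of the 3 passed between compartments or with PTX. Hspb2, Hspb3, Hspb7 and Hspb9 fell under the count minimum, as did Hspa12b, which is a relative of Hspa12a and no small heat shock protein. Of the heat shock factors and cochaperones, 11 of 32 were higher in control processes and 9 were lower (median 0.05), against 25.8% and 21.9% of all genes. The HSP70 exchange factor Bag1 (1.95), the factor-binding Hsbp1 (1.09) and Bag2 (-0.88) had the largest differences.

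The same compartment differences were then read in PTX cultures, which use other libraries. Here 15 members were higher in processes (22.1%, against 25.7% of all genes) and 18 were lower (26.5%, against 24%), with 12 higher and 24 lower under upper quartile scaling. Called in both kinds of culture were 12 higher and 12 lower members, and 0 were called in opposite directions. The same counts over all genes were not made, so this is not read as particular to the members. In either direction, 6823 of all 14309 genes were called in control and 7121 in PTX cultures. Called in control cultures only were Dnaja3, Dnajb2, Hspa9, Hspbap1 and Tcp1, 5 genes, and in PTX cultures only Cct4, Cct7, Dnajc17, Dnajc4, Dnajc7, Hsp90aa1, Hspa1l, Hspb11 and Hsph1, 9 genes. Hspa1l and Dnajc17, both lower in processes, exceeded the count minimum in the soma libraries alone. They were tested only through the group where they are high. The 18 lower members and their 26.5% include them and are not read as an excess over the 24%. Hspa9 missed the threshold in PTX cultures (0.48, quasi-likelihood adjusted p = 0.0534) but passed with the replicate block (adjusted p = 0.000338). That list does not show a difference between the cultures. The interaction, which tests it, called 0 of 68 members and 0% of all genes with the quasi-likelihood test. At an unadjusted p under 0.05 it called 2 members, Hsph1 (-0.44) and Tcp1 (0.39), against 4% of all genes, and the likelihood ratio test and DESeq2 also called 0 members after adjustment.

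**Figure D3:**
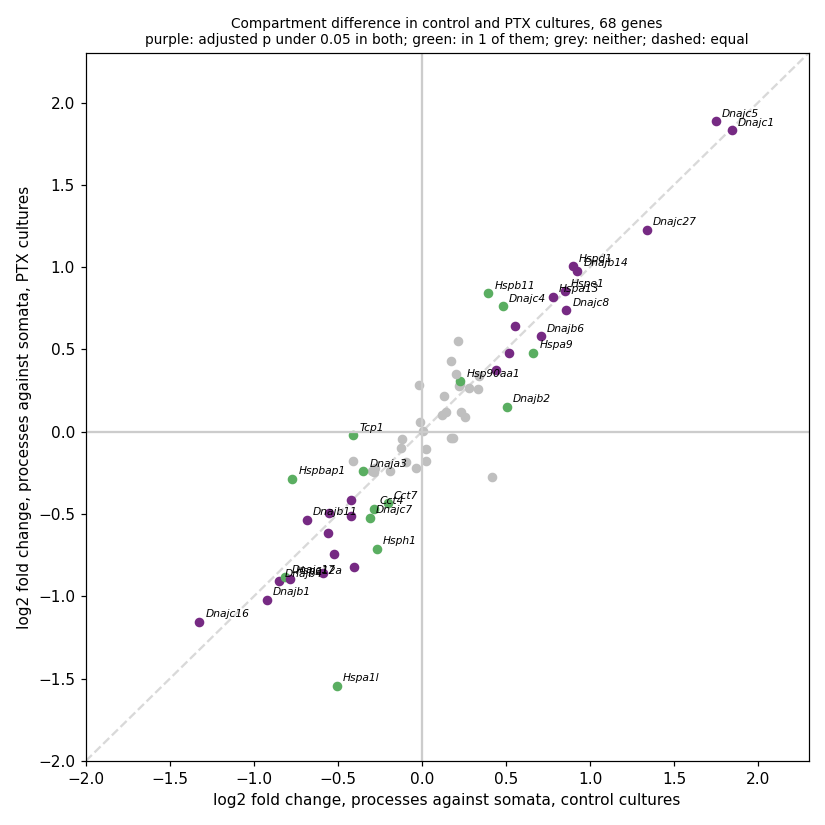
Log2 fold change of processes against somata in control cultures (horizontal axis) and in PTX cultures (vertical axis) for the 68 genes, with the dashed line marking equal values. Purple points are the 24 genes called in both kinds of culture, green points the 14 called in 1 of them and grey points the 30 called in neither. Purple points lie in the lower left and the upper right, and none lies in the other corners. The same counts over all genes were not made. Directions are relative to the typical gene, and with library size scaling alone nearly all genes were lower in processes.

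PTX moved few chaperone genes. In somata 1 member rose, Hspa5 (1.47%, against 2.09% of all genes), and 1 fell, Hspa12a (1.47%, against 1.5%). In processes 1 member rose, Dnajb11 (1.47%, against 1.64%), and 1 fell, Hspa12a (1.47%, against 2.1%). The median log2 fold change of the members was 0.03 in somata and -0.00049 in processes, against -0.01 over all genes in either compartment. Because equally numbered libraries deviated together, a fit with the replicate number as a block was run as well. It called 7 members higher (10.3%, against 7.2% of all genes) and 2 lower (2.94%, against 6.79%) in somata, and 3 higher (4.41%, against 5.1%) and 1 lower (1.47%, against 6.09%) in processes.

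Of the 12 members of the ER (HSP70, HSP90 and J proteins), the block called 4 higher in PTX somata and 3 in PTX processes, while 8 and 9 did not pass. Of the other 56 members it called 3 higher in somata and 0 in processes. Of all genes, the block called 7.2% higher in somata and 5.1% in processes. ER and other members were not tested against each other or against all genes. Hspa5 went from 158 and 157 CPM in control somata to 238 and 237 CPM in PTX somata, and from 99.2 and 110.2 CPM in control processes to 129 and 132 CPM in PTX processes. The groups did not overlap in either compartment. In somata the log2 fold change was 0.59 (SE 0.103, quasi-likelihood adjusted p = 0.011, a 1.51-fold level), and leaving out any soma library kept the size at 0.57 to 0.59 but lost the call (adjusted p = 0.073 to 0.123). In processes it was 0.32 (SE 0.106, adjusted p = 0.142), which passed with the block (adjusted p = 0.0272).

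Dnajb11, the BiP partner, went from 20.6 and 20.1 CPM in control processes to 28.3 and 28.8 CPM in PTX processes (log2 fold change 0.49, SE 0.113, quasi-likelihood adjusted p = 0.0395). In somata it measured 32.8 and 32.6 CPM in control and 40.9 and 41.9 CPM in PTX cultures (0.34, SE 0.0986, adjusted p = 0.0927), and the block called this rise too (adjusted p = 0.0104). The process call was lost with DESeq2 (adjusted p = 0.0691) and without any 1 of the 8 libraries. Hsp90b1 (GRP94, the HSP90 of the ER) went from 139.8 and 134 CPM to 169 and 185 CPM in somata (0.37, SE 0.103, adjusted p = 0.0845, with the block 0.00565). In processes it measured 162 and 160.4 CPM in control and 195 and 191 CPM in PTX cultures (0.26, adjusted p = 0.244, with the block 0.078). Hspa13 gave 0.31 in somata (adjusted p = 0.236, with the block 0.0299) and 0.35 in processes (adjusted p = 0.173, with the block 0.022).

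The other 8 J proteins of the ER did not pass, and their values lay on both sides of 0. Of the 9 J proteins of the ER, Dnajb11 included, 6 had positive values in somata and 6 in processes. Dnajb9 gave 0.24 in somata and 0.27 in processes, Dnajc3 gave 0.21 and 0.19, and Dnajc16 gave 0.24 and 0.41. Dnajc1 gave 0.13 and 0.12, and Dnajc25 gave 0.06 and 0.12. Dnajc10, a BiP partner and reductase, gave -0.08 and -0.04, Dnajb12 gave -0.11 and -0.05, and Dnajb14 gave -0.24 and -0.19. Of the 22 further ER folding genes, 20 had positive values in PTX somata (median 0.21) and 18 in PTX processes (median 0.14). The median over all genes was -0.01 in either compartment, and their share of positive values was not counted. Among the 22 Atf6, the membrane-bound transcription factor of the unfolded protein response, was the gene that passed, with 0.48 in somata (SE 0.101, quasi-likelihood adjusted p = 0.0258) and 0.45 in processes (SE 0.107, adjusted p = 0.0433). Without the block 2.09% of all genes were called higher in somata and 1.64% in processes. The block called 6 of the 22 higher in somata and 2 in processes, against 7.2% and 5.1% of all genes. Of the 3 promoters with an ER stress element, those of Hspa5 and Hsp90b1 belong to genes called in somata with the block, and that of Dnajc3 does not. Dnajb11 and Hspa13, also called in somata with the block, were not among the matches. A link between the element and the PTX values was not tested.

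Hspa12a was the member that fell in both compartments. It went from 63.9 and 60.8 CPM in control somata to 45.5 and 38.6 CPM in PTX somata, and from 40.2 and 32.1 CPM in control processes to 22.7 and 22.6 CPM in PTX processes. No PTX library overlapped the control libraries of its compartment. The log2 fold change was -0.57 in somata (SE 0.126, quasi-likelihood adjusted p = 0.0341, with the block 8.74e-05) and -0.68 in processes (SE 0.143, adjusted p = 0.0288, with the block 0.000373). Without 1 soma library it was -0.70 to -0.46 in somata, with no call (adjusted p = 0.0739 to 0.23), and in processes the call was lost without control replicate 1 (-0.50, adjusted p = 0.201) or either PTX library (adjusted p = 0.126 and 0.131). The interaction was -0.11 (SE 0.191), so the fall was not shown to differ between compartments. Of the 8 astrocyte markers 7 were negative in PTX somata, where Gja1 fell (-0.61), and none passed in processes, with 2 lower in somata and 1 higher and 1 lower in processes under the block. Of the 8 neuron markers 2 rose and 2 fell in somata (median -0.33, 5 lower with the block), and 2 rose and 1 fell in processes (4 lower with the block). The part of either in the Hspa12a values was not tested.

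**Figure D4:**
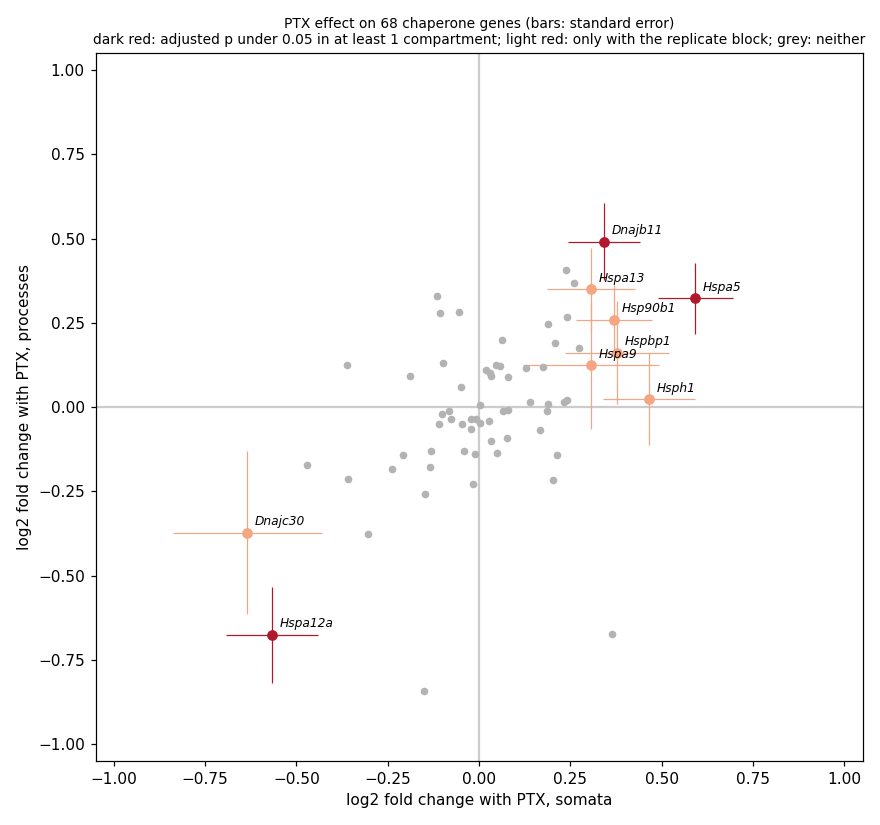
Log2 fold change with PTX in somata (horizontal axis) and in processes (vertical axis) for the 68 genes, with standard errors as bars. Dark red points passed in at least 1 compartment (Hspa5, Dnajb11 and Hspa12a), light red points passed only with the replicate number as a block, and grey points passed in neither fit. Hspa12a lies alone at the lower left (-0.57 and -0.68), and Hspa5 is farthest to the right (0.59).

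None of the 4 cytosolic HSP70 and 3 HSP110 members passed with PTX. Of the 11 HSP70 and HSP110 members of all compartments, 10 had positive values in PTX somata (median 0.24) but only Hspa5 was called as a rise. In processes their median was 0.02, and the median over all genes was -0.01 in somata and in processes. Hsph1 went from 68.4 and 56.8 CPM to 83.6 and 89.2 CPM in somata (log2 fold change 0.47, SE 0.127, quasi-likelihood adjusted p = 0.0778), and passed with the likelihood ratio test (adjusted p = 0.0239) and with the block (adjusted p = 0.00226). In processes it gave 0.02 (SE 0.136). Hspa8 gave 0.24 in somata (SE 0.108, adjusted p = 0.315) and 0.02 in processes, and Hspa9 0.31 in somata (adjusted p = 0.51, with the block 0.0314) and 0.12 in processes. Hspbp1, an HSP70 exchange factor, gave 0.38 in somata (adjusted p = 0.215, with the block 0.0202), and Dnajc30 of mitochondria -0.63 (adjusted p = 0.137, with the block 0.0301).

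The 9 members listed for induction by heat were Dnaja1, Dnajb1, Hsp90aa1, Hspa4l, Hspa8, Hspb1, Hspd1, Hspe1 and Hsph1, although Hspa8 is called constitutive above. Of them 7 had positive values in PTX somata and 7 in PTX processes. None was called in either compartment (with the block 1, Hsph1, in somata). Their medians were 0.08 in somata and 0.02 in processes, against -0.01 over all genes in either compartment. Dnajb1 gave 0.27 in somata (SE 0.116, quasi-likelihood adjusted p = 0.28) and 0.17 in processes, Hspd1 -0.05 and 0.06, Hspe1 0.00 and 0.01, and Hsp90aa1 0.05 and 0.12. Hspa1a gave 0.85 in somata (SE 0.259, adjusted p = 0.115, with the block 0.0131), with 97 and 78 reads against 52 and 40, and -0.10 in processes, where it had at most 8 reads per library. Of the heat shock factors and cochaperones 1 of 32 passed, the tetratricopeptide cochaperone Sgtb, which rose in somata (0.92). Its value in processes was 0.52 (SE 0.164, adjusted p = 0.123, with the block 0.00749), and 0 genes of the list passed there. With the block 2 genes of the list were higher in somata (7.2% of all genes), among them Hspbp1, which is also a member. In processes the block called 2 higher and 2 lower (5.1% and 6.09% of all genes).

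The CCT subunits had log2 fold changes with PTX of -0.11 to 0.19 in somata and -0.13 to 0.28 in processes and 0 of 8 called, blocked or not. None of the 11 prefoldin and CCT cofactor genes and none of the 10 mitochondrial folding genes, Hspa9 included, passed either. The block called 4 and 3 of them higher in somata and 1 of each list in processes, against 7.2% and 5.1% of all genes. Dnajc5 gave 0.06 in somata (SE 0.202) and 0.20 in processes (SE 0.202), with the PTX process libraries at 733 and 454 CPM spread more widely than the control ones.

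Between the replicate numbers themselves, a contrast added after the data were seen, replicate 2 was higher than replicate 1 for Hspa9 (0.33, SE 0.0699, quasi-likelihood adjusted p = 0.00271), Cct3 (0.22) and Dnajc7 (0.21), which are 3 members against 5% of all genes. It was lower for Dnajc27 (-0.24), which is 1 member against 7.11% of all genes. What the numbers mark is not stated in the labels.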

How the data were processed

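The authors trimmed reads with Trimmomatic, aligned them with Subread subjunc (the submitters' processing notes list STAR and the rat build Rnor 6.0), counted them per Ensembl gene with featureCounts, and summed the genes of each symbol. The deposited table gives raw counts of reads for 28909 symbols. The kit was directional, but the strand setting of the counting is not given in the sources used here, so reads of overlapping or antisense genes, and of near-identical copies such as HSP70 genes and processed pseudogenes of Hspa8, Hspd1 and Hspe1, are of uncertain origin. In the deposited comparison tables the authors give log2 fold changes, log2 CPM, a likelihood ratio score, p-values and FDR. None of these was used. Only the biotype was taken from them, for 14299 symbols.

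A gene had to exceed 20 reads in 2 or more libraries. TMM factors and a single model with the 4 conditions came from edgeR 4.0.16 (glmQLFit and glmQLFTest) with limma 3.58.1 in R 4.3.3. Benjamini-Hochberg adjustment ran over 14309 genes, and the threshold was 0.05. Each standard error was obtained from the log2 fold change and its F statistic. The fit was tested on simulated data. Promoters came from RefSeq (GRCr8), a different build from that of the counts, and were matched by symbol.

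The members and gene lists were chosen with earlier results of these data known. Named are, for each contrast, up to 10 called members with the largest rise and up to 10 with the largest fall (at least 5 CPM in 1 group, no overlap between libraries), a fixed list of role genes, and up to 3 called genes per further list. Other names stand where a count is broken down.

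The replicate numbers of the labels pair the libraries. Per gene, the change from the library numbered 1 to that numbered 2 correlated between control and PTX somata (r = 0.54) and in the other 5 pairs of conditions (r = 0.274 to 0.367), and a block for the number lowered the common dispersion from 0.01319 to 0.004589. Alternatives were that block, DESeq2 1.42.0, edgeR's likelihood ratio test, upper quartile scaling or none beyond library size, leaving out mitochondrial genes or each library, a fit of just the 4 libraries compared, no filter, and a filter of 10 reads in all libraries.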

Additional observations from a re-analysis of the deposited data

How the results depend on the processing

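Depth outside mitochondrial rRNA limits processes more than somata, since a median member had at most 294.5 reads there, and with 2 libraries per condition each left-out library leaves 1, which is assumed to vary like the other conditions. The cause of the changes listed here was not tested, apart from the smaller number of libraries in the fits that leave some out. For PTX in somata, the count of members called higher (1) was 3 with the likelihood ratio test, 2 with no filter, 7 with the replicate block and 0 to 1 without single libraries, and the count called lower (1) was 0 with library size only, 2 with the block and 0 to 1 without single libraries. The median (0.03) was 0.096 with library size only, 0.011 with upper quartile, 0.037 with no filter, 0.038 with only the 4 libraries and -0.022 to 0.079 without single libraries. For PTX in processes, the count higher (1) was 0 with DESeq2, library size only or only the 4 libraries, 3 with the block and 0 without any single library, and the count lower (1) was 0 with only the 4 libraries and 0 to 1 without single libraries. The median there (-0.00049) was 0.043 with library size only and -0.048 to 0.077 without single libraries.

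For the compartment difference in control cultures, library size only gave 0 higher, 66 lower and a median of -1.77, and upper quartile 24 lower and -0.18. The median (0.02) was 0.035 with DESeq2, 0.0042 with no filter, -0.041 with at least 10 reads in every library and -0.024 to 0.047 without single libraries, where 11 to 15 members were higher and 8 to 15 lower (8 without control processes replicate 1). In PTX cultures library size only gave 0 higher, 66 lower and -1.85, upper quartile a median of -0.21, and single libraries left out 11 to 16 higher and 13 to 17 lower, with medians of -0.028 to 0.028. The interaction median (-0.016) was -0.040 with library size only, 0.0099 with upper quartile and -0.061 to 0.057 without single libraries, with 0 members called throughout.

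With library size only, where the median of all genes was -1.86 in control and -1.87 in PTX cultures, 35 and 31 of the 68 members changed sign. Among the genes followed singly, and where a value passed before or after, those were in control cultures Dnajc5 (-0.049), Dnajc27 (-0.48), Dnajb14 (-0.88), Hspd1 (-0.90), Dnajc8 (-0.94), Hspe1 (-0.95), Hspa13 (-1.02), Dnajb6 (-1.10), Hspa9 (-1.13), Dnajc15 (-1.26), Dnajc19 (-1.29), Dnajb2 (-1.30), Hspa4 (-1.36), Hspb1 (-1.55), Hsp90b1 (-1.57), Hsp90aa1 (-1.58), Hspb8 (-1.60), Hspa4l (-1.61), Dnajc30 (-1.63), Hspbp1 (-1.65), Cct2 (-1.67), Dnajc3 (-1.68) and Dnaja2 (-1.77). In PTX cultures, where fewer genes were followed singly, they were Dnajc27 (-0.60), Hspd1 (-0.82), Dnajb14 (-0.84), Hspe1 (-0.97), Hspb11 (-0.98), Hspa13 (-1.0), Dnajc4 (-1.06) and Dnajc8 (-1.09). Among the values followed singly, the replicate block moved 12 past the threshold, each given with the results, and ended no call. In PTX cultures the block called 19 members higher and 21 lower in processes, against 15 and 18 without it. Of all 14309 genes it called 8519 in either direction, against 7121. Hspa9 (blocked log2 fold change 0.46, quasi-likelihood adjusted p = 0.000338) and Cct2 (0.21, adjusted p = 0.0444) were among the members added.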
